A study of Mus musculus with 16 samples.

Results

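The SNARE and exocytosis machinery of dispersed mouse islet cells was followed through 9 genes, Snap25, Stx1a, Vamp2, Syt7, Syt13, Unc13a, Rab3a, Rab27a and Sytl4. They were taken by name from a table of 25105 genes, with earlier results of these data known. All 9 were found and passed the filter on low values in every comparison. Islet cells of Grp78 flox/flox mice were transduced with an adenovirus carrying LacZ (Ad-LacZ) or Cre recombinase (Ad-Cre) and kept in 15 mM glucose for 72 hours, either with vehicle (DMSO) or with JNK-IN-8, a covalent inhibitor of the JNK kinases, added at the start. Both floxed alleles were carried by the cells of all 4 groups, so that the Ad-LacZ groups are floxed cells without recombinase. The cells came from 4 batches of islets, here called preparations (F1, M1, M2 and F2 in the labels). F1 and F2 are read as female and M1 and M2 as male preparations. Each gave 1 library to each of the 4 groups. The label of a preparation also holds numbers joined by a plus sign, and it does not say what they stand for. The paper counts as many mice as there are preparations here. Whether a preparation pools cells of several animals therefore cannot be told from the labels. The virus was given to the whole dispersed islet and was not aimed at one cell type. The labels give no age. The paper describes the sequenced mice as adult and gives a range of ages for its ex vivo islet work.

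Hormone granules fuse with the plasma membrane when a SNARE on the granule, VAMP2, zips together with 2 SNARE proteins of the plasma membrane, syntaxin 1A (Stx1a) and SNAP25. Before that step the small GTPases RAB3A and RAB27A mark the granule and recruit effectors that tether it, granuphilin (Sytl4) holds it docked by binding RAB27A and syntaxin 1A, and Munc13-1 (Unc13a) primes it. Synaptotagmin 7 (Syt7) senses the calcium that triggers fusion, whereas synaptotagmin 13 (Syt13) belongs to the same family but lacks the residues that bind calcium.

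The values are RPKM, reads per kilobase of gene length and per M reads, where M stands for mega, so that levels of different genes can be compared. Differences between groups are on the log2(RPKM + 1) scale after scaling of the libraries, were tested with limma, and are called at a Benjamini-Hochberg adjusted p under 0.05 over all genes tested. The smallest p that the exact permutation test of 4 libraries against 4 can give is 0.0286. The paper states a range of raw counts a sample whose lower end is higher than the lowest depth inferred here. Depth, inferred from the deposited RPKM, ranged from 7.68 M to 25.4 M reads a library. The lowest was the Ad-Cre + JNK inhibitor library of F2, which was sequenced in another run, on lane 8 instead of lane 5. By the same inference between 81.5 reads (Stx1a) and 38670 reads (Syt13) stood behind a member's value in a library. Hspa5, which encodes GRP78 and is the gene that Cre targets, had between 395 and 483 RPKM in Ad-LacZ and between 1107 and 1599 RPKM in the libraries that the labels call Ad-Cre. The RPKM were thus higher in Ad-Cre, whereas the authors reported Grp78 knockdown by quantitative PCR in parallel aliquots of the sequenced samples. A value for the whole gene cannot show whether the floxed exons were lost, so that "Ad-Cre" below means the libraries labelled Ad-Cre. Jun was at 20.8 ± 5.95 RPKM (SD, n = 4) in Ad-LacZ and 9.68 ± 4.22 RPKM in Ad-LacZ + JNK inhibitor. Beta cell markers were abundant in all groups (summed over 9 genes, 33252 to 84724 RPKM a library), and 6 acinar markers summed to 0.59 RPKM at most. Of 7 neuron and Schwann cell markers 4 stayed under 1 RPKM on average in every group, and the 7 summed to 26.4 to 77.0 RPKM a library.

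In Ad-LacZ cells the 9 transcripts spanned a wide range of levels. Syt13 stood highest at 344 ± 56.8 RPKM (SD, n = 4), followed by Sytl4 at 97.7 ± 16.3, Rab27a at 82.1 ± 4.36, Syt7 at 66.0 ± 6.25, Vamp2 at 49.0 ± 4.19 and Rab3a at 43.2 ± 5.69 RPKM. Snap25 (14.4 ± 3.35 RPKM), Unc13a (10.4 ± 0.92 RPKM) and Stx1a (4.05 ± 0.77 RPKM) were the lowest. The ranges of Sytl4 and Rab27a overlapped, as did those of Vamp2 and Rab3a, and every other neighbour in this order was separated in all 4 libraries. The granule genes Vamp2, Rab3a, Rab27a and Sytl4 were at higher levels per length than the target-membrane SNAREs Snap25 and Stx1a in each Ad-LacZ library. RPKM here divides by the summed length of all annotated exons of a gene, which is 12623 bases for Unc13a and 2226 for Rab3a, so that a gene with many unused exons is understated. Some related neuronal genes were near the floor: Syt1 was at 0.69 ± 0.12 RPKM, Rab27b at 0.36 ± 0.06 and Rims1 at 0.06 ± 0.03 RPKM in Ad-LacZ, which were looked up after the members' levels were known.

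Over the 16 libraries Sytl4 varied most, from 18.2 to 121 RPKM (highest over lowest 6.63), and Unc13a (8.16 to 14.2 RPKM, ratio 1.74) and Vamp2 (30.2 to 52.6 RPKM, ratio 1.75) least. The other 6 members had ratios between 1.83 (Rab27a) and 2.91 (Syt13). In the Ad-Cre libraries the order of levels changed for Sytl4, which stood at rank 2 in Ad-LacZ and at rank 5 in Ad-Cre, behind Rab27a, Syt7 and Vamp2. Its range in Ad-Cre overlapped those of Vamp2 and Rab3a, its neighbours there. In Ad-LacZ + JNK inhibitor Sytl4 was at rank 2 in each of the 4 libraries, and in Ad-Cre + JNK inhibitor it lay between ranks 4 and 6, with a range that overlapped those of Vamp2 and Rab3a.

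**Figure D1:**
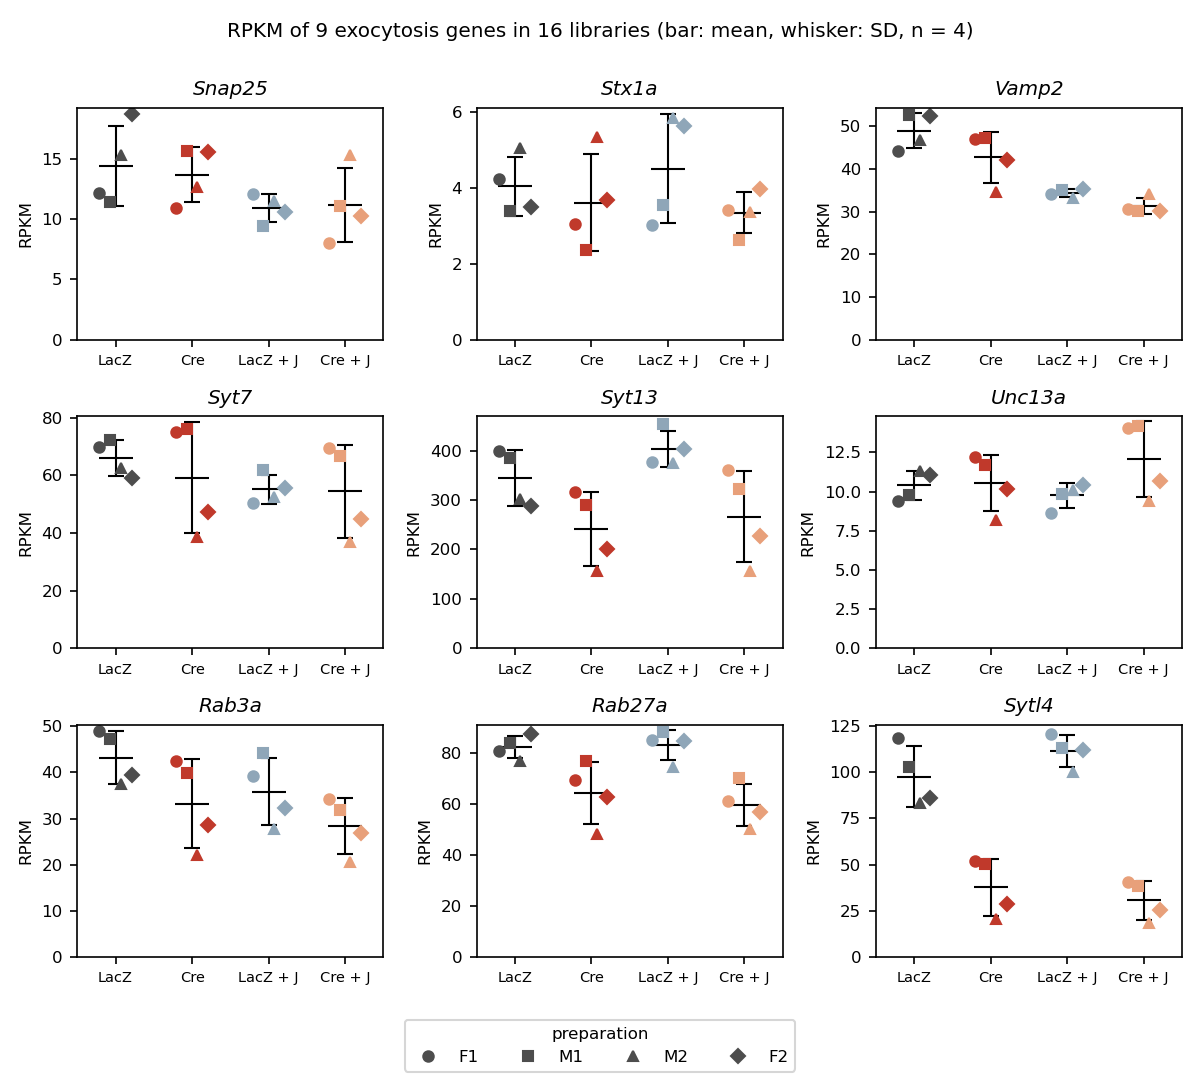
RPKM of the 9 genes (y axes, from 0) in the 4 groups (x axes, J for JNK inhibitor), with 1 point per library shaped by preparation, a bar at the mean and whiskers of 1 SD (n = 4). Sytl4 sits between 20.8 and 51.7 RPKM in Ad-Cre and between 18.2 and 40.6 RPKM in Ad-Cre + JNK inhibitor, below all libraries of both Ad-LacZ groups, whereas the points of Snap25, Stx1a and Syt7 overlap between the groups.

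The first comparison, Ad-Cre against Ad-LacZ, asks how the machinery differed after the recombinase in floxed cells. Sytl4, the docking effector granuphilin, fell, and the 3 core SNAREs did not pass the test. Of the 9 members 1 was called lower and 0 higher, beside 9.79% of 11590 genes called lower and 9.2% called higher in this comparison. The members' median difference was -0.18 on the log2 scale, beside 0.02 over all genes, and 8 of 9 members had a negative difference.

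Sytl4 (ENSMUSG00000031255, GRCm38 chromosome X, 133936385 to 133981812, minus strand) was at 118, 103, 83.5 and 85.9 RPKM in the Ad-LacZ libraries of F1, M1, M2 and F2. In the Ad-Cre libraries of the same preparations it was at 51.7, 50.1, 20.8 and 28.7 RPKM. All Ad-Cre libraries were below all Ad-LacZ libraries, and M2 and F2 were lowest in both groups. The difference was -1.40 on the log2 scale (standard error 0.33, 95% interval -2.14 to -0.67, adjusted p = 0.0207 from limma with 4 libraries a group, p = 0.0286 in the exact two-sided permutation test), and it was -1.11, -0.99, -1.91 and -1.60 in F1, M1, M2 and F2. With the preparation as a block the adjusted p from limma was 0.00153. Without M1 the adjusted p from limma was 0.0576 and without F2 it was 0.104, at differences of -1.54 and -1.35, and with the block it stayed under the threshold without any one of the preparations (0.00179 to 0.0141). For groups that do not overlap on the scaled values, the share over all genes was 14.1% lower and 13% higher, and Sytl4 was the 1 member among them.

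Syt13, Rab3a and Rab27a had the next differences, all negative in each of the 4 preparations. Syt13 (ENSMUSG00000027220, chromosome 2, 92915098 to 92956058, plus strand) went from 400.0, 385, 303 and 288 RPKM in Ad-LacZ of F1, M1, M2 and F2 to 317, 291, 157 and 201 RPKM in Ad-Cre. The 2 groups overlapped, because the Ad-Cre libraries of F1 and M1 lay at the level of the Ad-LacZ libraries of M2 and F2. Its difference was -0.53 (standard error 0.28, adjusted p = 0.217 from limma), and with the preparation as a block it was called (adjusted p = 0.0201). Rab3a (ENSMUSG00000031840, chromosome 8, 70754679 to 70758677, plus strand) was at 48.9, 47.2, 37.4 and 39.4 RPKM in Ad-LacZ and at 42.4, 39.9, 22.1 and 28.6 RPKM in Ad-Cre, a difference of -0.38 (standard error 0.25, adjusted p = 0.311 from limma, and 0.0379 with the block). Rab27a (ENSMUSG00000032202, chromosome 9, 73044854 to 73097629, plus strand) was at 80.8, 83.7, 76.9 and 87.1 RPKM and then at 69.3, 76.8, 48.0 and 62.7 RPKM. Its difference of -0.35 (standard error 0.18) was not called in either fit (adjusted p = 0.21 from limma, and 0.0568 with the block). It was called with quantile normalization (-0.52, adjusted p = 0.038 from limma). In the blocked fit 3 of 9 members were lower and 0 higher, beside 17.1% of all genes lower and 17.6% higher. The calls of Syt13 and Rab3a with the block were lost without M2 (adjusted p = 0.0639 and 0.113 from limma) and without F2 (0.0751 and 0.124), the 2 preparations with the larger differences.

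The SNAREs themselves were not called with or without the block. Vamp2 (ENSMUSG00000020894, chromosome 11, 69088490 to 69092384, plus strand) was at 44.2, 52.6, 46.7 and 52.4 RPKM in Ad-LacZ and at 46.9, 47.3, 34.6 and 42.1 RPKM in Ad-Cre, a difference of -0.18 with a 95% interval from -0.53 to 0.17. Snap25 (ENSMUSG00000027273, chromosome 2, 136713453 to 136782428, plus strand) was at 12.2, 11.4, 15.3 and 18.7 RPKM and then at 10.9, 15.6, 12.7 and 15.6 RPKM, a difference of -0.03 (interval -0.41 to 0.34). Stx1a (ENSMUSG00000007207, chromosome 5, 135023482 to 135051100, plus strand) was at 4.25, 3.39, 5.06 and 3.49 RPKM and then at 3.05, 2.36, 5.34 and 3.69 RPKM, a difference of -0.14 (interval -0.52 to 0.24). The groups overlapped for each of the 3, and these intervals, without the block, do not exclude the difference seen for Rab3a (-0.38). With the block the intervals of Vamp2 (-0.44 to 0.09) and Stx1a (-0.39 to 0.11) still include it. That of Snap25 (-0.34 to 0.27) does not.

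The calcium sensor Syt7 (ENSMUSG00000024743, chromosome 19, 10389090 to 10453180, plus strand) was at 69.9, 72.4, 62.5 and 59.0 RPKM in Ad-LacZ and at 75.0, 76.3, 38.6 and 47.3 RPKM in Ad-Cre. F1 and M1 were thus slightly higher and M2 and F2 lower, and the difference of -0.18 (interval -0.77 to 0.41) was not called. The priming factor Unc13a (ENSMUSG00000034799, chromosome 8, 71624417 to 71671757, minus strand) split the same way, from 9.42, 9.80, 11.3 and 11.1 RPKM to 12.2, 11.7, 8.16 and 10.2 RPKM, with a difference of 0.03 (interval -0.31 to 0.37). Annotated genes overlap the exons of 4 of the 9 members. On the opposite strand Gm26859 shares 5.13% of the exon bases of Syt7, Colgalt1 3.92% of those of Unc13a and Mpv17l2 1.3% of those of Rab3a, and Gm27186 shares 3.84% of those of Rab27a on the same strand, so that reads there cannot be assigned with certainty.

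**Figure D2:**
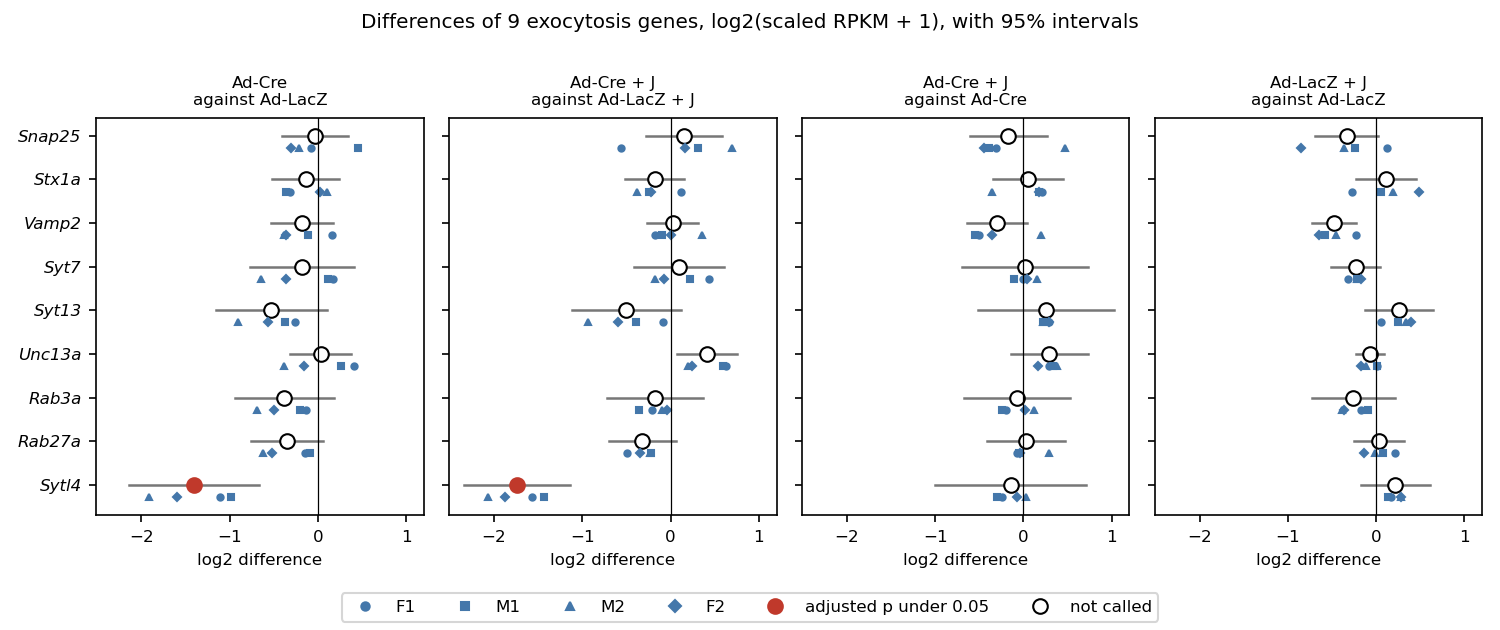
Differences of the 9 members on the log2(scaled RPKM + 1) scale (x axes) in the 4 comparisons, as large circles with 95% intervals from limma (filled where the adjusted p is under 0.05, n = 4 libraries a group), with the difference within each preparation as small symbols below. Sytl4 is the filled point in both comparisons of Ad-Cre with Ad-LacZ, at -1.40 without and -1.74 with JNK inhibitor, and no member is filled in the 2 comparisons of the inhibitor.

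The second comparison of the virus, Ad-Cre + JNK inhibitor against Ad-LacZ + JNK inhibitor, shares no library with the first and comes from the same 4 preparations. Sytl4 fell here as well, and it was again the 1 member called lower, with 0 called higher, beside 9.67% of 11598 genes called lower and 12.1% called higher. It was at 121, 113, 99.9 and 112 RPKM in Ad-LacZ + JNK inhibitor and at 40.6, 38.2, 18.2 and 25.2 RPKM in Ad-Cre + JNK inhibitor of F1, M1, M2 and F2. The groups did not overlap and every preparation was lower, with a difference of -1.74 (standard error 0.27, 95% interval -2.34 to -1.14, adjusted p = 0.0029 from limma, and 0.0023 in the blocked fit). Over all genes 13.2% did not overlap and were lower, and 13.5% were higher. The adjusted p of Sytl4 stayed under the threshold in each of 13 other fits of this comparison, the omission of the library of the other run included (0.000398 to 0.0363). Under the block 10.4% of all genes were called lower and 13.5% higher, and Sytl4 was still the 1 member called.

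Unc13a was the other member whose groups did not overlap in the presence of the inhibitor. It was at 8.61, 9.84, 10.1 and 10.4 RPKM in Ad-LacZ + JNK inhibitor and at 14.1, 14.2, 9.40 and 10.7 RPKM in Ad-Cre + JNK inhibitor. On the deposited values the M2 library of Ad-Cre + JNK inhibitor lay inside the range of the other group, and only after scaling were the groups apart, with p = 0.0286 in the exact permutation test. Its difference of 0.42 (interval 0.08 to 0.76, higher in 4 of 4 preparations) missed the threshold in limma (adjusted p = 0.0787, and 0.0578 with the block), and without scaling it was 0.27. Syt13 went from 377, 455, 376 and 403 RPKM to 360, 322, 156 and 227 RPKM, a difference of -0.50 that was not called (adjusted p = 0.221 from limma, and 0.0709 with the block). Quantile normalization gave -1.14, which was called (adjusted p = 0.00409 from limma). Rab27a went from 84.8, 88.1, 74.5 and 84.6 RPKM to 61.0, 70.02, 50.2 and 56.6 RPKM, so that the deposited values did not overlap. Its difference of -0.32 was not called with TMM scaling (adjusted p = 0.201 from limma) and was called without scaling (-0.48, adjusted p = 0.024) and with quantile normalization (-0.66, adjusted p = 0.0039). Rab3a (-0.17), Stx1a (-0.18), Snap25 (0.15), Syt7 (0.10) and Vamp2 (0.02) were not called, and the last 2 were negative without scaling and with quantile normalization. Leaving the libraries unscaled moved the median of all genes by -0.14 in this comparison.

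The test of whether the effect of the virus differed with the inhibitor, an interaction over all 16 libraries and 12274 genes, called 0 of the 9 members in limma, beside 0.0163% of all genes, and 0 with the block, beside 0% of all genes. At an unadjusted p under 0.05 there was also no member in either fit. For Sytl4 the interaction was -0.33 with a 95% interval from -1.31 to 0.65 without the block and from -0.82 to 0.15 with it. Both intervals span no difference and a deeper fall with the inhibitor, and only the unblocked one reaches a much shallower fall. The largest interaction was 0.39 for Unc13a (interval -0.09 to 0.87 without the block).

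The comparisons of the inhibitor within one virus asked whether JNK-IN-8 changed these transcripts. In Ad-LacZ cells Vamp2 differed most and in a fit across all genes it was not called. It was at 44.2, 52.6, 46.7 and 52.4 RPKM in Ad-LacZ and at 34.1, 35.0, 33.2 and 35.2 RPKM in Ad-LacZ + JNK inhibitor, with no overlap and a coefficient of variation of 2.66% among the latter. The difference was -0.48 (standard error 0.11, 95% interval -0.72 to -0.23, lower in 4 of 4 preparations, p = 0.0286 in the exact two-sided permutation test, adjusted p = 0.226 from limma, and 0.128 with the block). In this comparison 0 members were called without the block, beside 0.206% of 11657 genes, 0 with it, beside 0.36%, and 1 member did not overlap, beside 4.7%. At an unadjusted p under 0.05 there was 1 member, Vamp2, without the block and 5 with it, 3 lower and 2 higher. Rab3a (-0.26, adjusted p = 0.998 from limma, and 0.286 with the block) and Syt7 (-0.23, adjusted p = 0.895, and 0.245 with the block) were lower in all 4 preparations, and Sytl4 (0.22) and Syt13 (0.26) were higher in all 4, none of them past the adjusted threshold.

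In Ad-Cre cells the inhibitor likewise gave 0 calls among the members without the block, beside 0% of 11503 genes, and 0 with it, beside 6.08%. At an unadjusted p under 0.05 there were 0 members without the block and 2 with it. No member was without overlap on the scaled values, beside 7.1% of genes. Vamp2 was at 46.9, 47.3, 34.6 and 42.1 RPKM in Ad-Cre and at 30.5, 30.2, 34.1 and 30.2 RPKM in Ad-Cre + JNK inhibitor of F1, M1, M2 and F2. It was lower in 3 preparations and higher on the scaled values in M2 (difference 0.20), with a difference of -0.30 over the 4 (adjusted p = 0.581 from limma, and 0.214 with the block). On the deposited values Vamp2 was lower in each preparation. The 2 groups then did not overlap, with 34.596 and 34.148 RPKM in M2 as the nearest values. Without scaling its difference was -0.43 and was not called (adjusted p = 0.25 from limma). Snap25 had scaled differences of -0.31, -0.39 and -0.45 in F1, M1 and F2 and 0.47 in M2. Sytl4, which was low in Ad-Cre, stayed low with the inhibitor: its difference was -0.14 with a 95% interval from -0.999 to 0.71 without the block, and its standard error was 0.08 with it. Syt13 (0.22 to 0.29) and Unc13a (0.17 to 0.39) were higher in each of the 4 preparations and missed the threshold (adjusted p = 0.0808 and 0.066 from limma with the block). A fit added after the data were seen, with the block and without M2, called 4 members. Snap25 (-0.36) and Vamp2 (-0.45) were lower and Syt13 (0.29) and Unc13a (0.28) higher. The share of all genes called in that fit is not given here, so the 4 calls are not a result about the members. The comparisons of the inhibitor share the Ad-LacZ and Ad-Cre libraries with the first comparison.

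Ratios of 2 genes within a library, which no scaling between libraries can alter, were formed after the members' values were seen and were not tested. The ratio of Sytl4 to Rab27a, the GTPase that granuphilin binds, was 0.99 to 1.47 in the 4 Ad-LacZ libraries and 1.29 to 1.42 in the 4 Ad-LacZ + JNK inhibitor libraries. It was 0.43 to 0.75 in Ad-Cre and 0.36 to 0.67 in Ad-Cre + JNK inhibitor. The lower values of Sytl4 thus went beyond those of its partner in every preparation. The ratio of Sytl4 to Syt13 was 0.27 to 0.30 in Ad-LacZ, 0.13 to 0.17 in Ad-Cre and 0.11 to 0.12 in Ad-Cre + JNK inhibitor. For Snap25 and Snap23, its broadly expressed relative, the ratio was 0.94 to 1.23 in Ad-LacZ, 0.67 to 0.97 in Ad-Cre, 0.70 to 0.78 in Ad-LacZ + JNK inhibitor and 0.47 to 0.64 in Ad-Cre + JNK inhibitor. The ranges of Ad-LacZ and Ad-Cre overlapped for this last ratio.

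**Figure D3:**
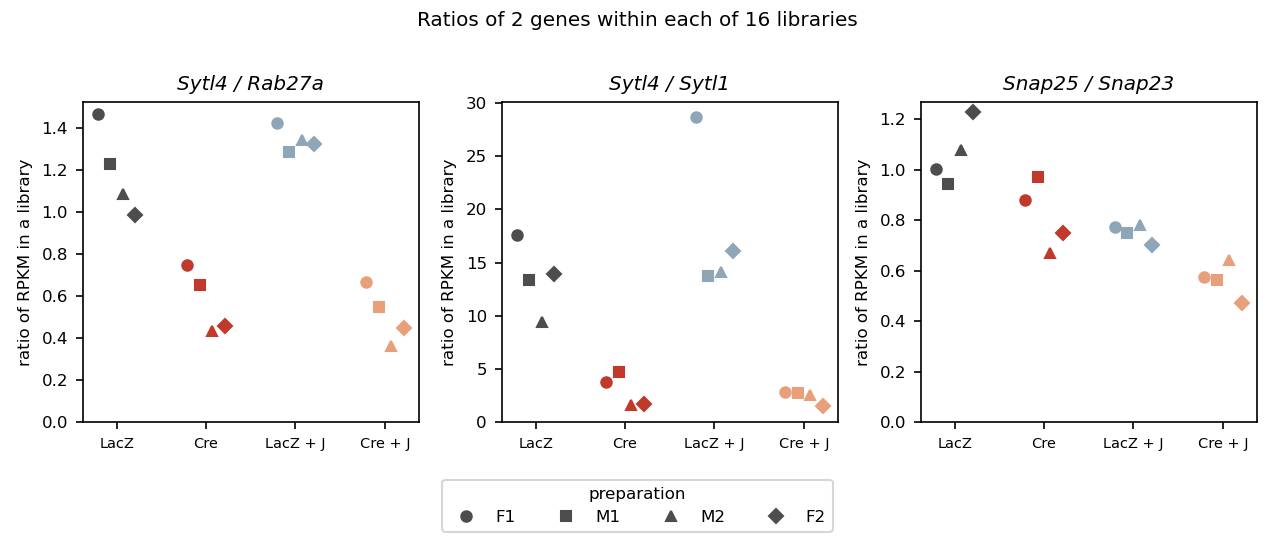
Ratio of the RPKM of 2 genes within each of the 16 libraries (y axes, from 0), by group (x axes, J for JNK inhibitor) and with points shaped by preparation. Sytl4 over Rab27a and Sytl4 over Sytl1 lie lower in all 8 Ad-Cre libraries than in all 8 Ad-LacZ libraries, and Snap25 over Snap23 is lowest in Ad-Cre + JNK inhibitor.

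Around the members, 98 further genes of exocytosis were listed by function, again with earlier results of these data known, and 97 are in the table. In Ad-Cre against Ad-LacZ 67 of them passed the filter, and 14 were called lower and 1 higher (22 lower and 3 higher with the block), with a median difference of -0.17 beside 0.02 over all genes. The shares of all genes called were 9.79% lower and 9.2% higher, and 17.1% and 17.6% with the block. The count of 15 fell to 4 without F2 and to 7 without M1 when no block was used, and with the block it was 15 to 22 without any one preparation. With the inhibitor, Ad-Cre against Ad-LacZ had 15 of 68 called lower and 2 higher, beside 9.67% and 12.1% of all genes, with a median of -0.15 beside -0.01. Without M1 that count was 0 and without F2 it was 1, whereas it was 12 when the Ad-Cre + JNK inhibitor library of F2 alone was left out. In the comparisons of the inhibitor, 0 of 68 genes were called in limma without the block in Ad-Cre (3 at an unadjusted p under 0.05) and 0 of 68 in Ad-LacZ (6 at an unadjusted p under 0.05). With the block 2 were called in Ad-Cre, Napa (0.52) higher and Syt11 (-0.63) lower, which were named after their values were seen, beside 6.08% of all genes, and 0 in Ad-LacZ, beside 0.36%. The interaction called 0 of 70 in either fit, with 0 at an unadjusted p under 0.05 without the block and 1 with it.

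Active zone scaffolds, large proteins that hold release sites and calcium channels together, included the largest falls. Of 9 tested, 4 were lower and none higher in Ad-Cre, with a median of -0.25, beside 9.79% of all genes lower and 9.2% higher. Pclo (piccolo) was at 10.9, 16.5, 13.1 and 20.7 RPKM in Ad-LacZ of F1, M1, M2 and F2 and at 6.30, 7.08, 4.23 and 5.85 RPKM in Ad-Cre, a difference of -1.21 (standard error 0.22, adjusted p = 0.0095 from limma). Rims2 (RIM2, which binds RAB3A) was at 15.1, 14.8, 13.9 and 16.9 RPKM and then at 7.58, 7.71, 5.72 and 6.63 RPKM, a difference of -1.02 (standard error 0.14, adjusted p = 0.00353 from limma). Both were apart in all libraries. Erc2 (-0.81, 2.72 to 1.08 RPKM on average) and Rimbp2 (-0.62, 25.1 to 15.4 RPKM on average), which links RIM proteins to calcium channels, were the other 2. With the inhibitor the differences of Pclo, Rims2, Erc2 and Rimbp2 were -1.40, -0.92, -0.77 and -0.59, and each was called, beside 9.67% of all genes lower.

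Among RAB3 and RAB27 proteins, their effectors and regulators, 5 of 15 tested were lower and 1 higher (8 lower and 2 higher with the block), with a median of -0.39. Beside them 9.79% of all genes were lower and 9.2% higher, and 17.1% and 17.6% with the block. The falls were of Exph5 (-0.72, adjusted p = 0.0495 from limma) and Mlph (-0.69), both RAB27 effectors, Rph3al (-0.61), an effector known as Noc2, Myo5a (-0.55), the myosin that Mlph links to RAB27A on melanosomes, and Madd (-0.51), an exchange factor that activates RAB3 and RAB27 and is named after its value was seen. Mlph was at 7.52 ± 0.83 RPKM in Ad-LacZ and 4.2 ± 0.45 RPKM in Ad-Cre (SD, n = 4), and Myo5a at 15.8 ± 2.38 and 10.3 ± 1.06 RPKM. The 5 were called with the inhibitor as well, at differences of -0.80 (Exph5), -0.94 (Mlph), -0.87 (Rph3al), -0.58 (Myo5a) and -0.63 (Madd).

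Sytl1, a RAB27A effector of the same synaptotagmin-like family as granuphilin, went the other way. It was at 6.72, 7.68, 8.87 and 6.18 RPKM in Ad-LacZ and at 13.6, 10.6, 12.9 and 16.4 RPKM in Ad-Cre of F1, M1, M2 and F2, with no overlap. The difference was 0.80 (standard error 0.13, adjusted p = 0.00631 from limma), and with the inhibitor it was 1.00 (standard error 0.24, adjusted p = 0.0193), where M2 differed least (0.29) and the groups overlapped. Sytl4 stayed the more abundant of the pair in all 16 libraries, but the ratio of Sytl4 to Sytl1 was 9.41 to 17.6 in Ad-LacZ and 1.61 to 4.72 in Ad-Cre. With the inhibitor that ratio was 13.8 to 28.7 in Ad-LacZ and 1.51 to 2.85 in Ad-Cre. A further member of this family, Sytl5, was at 23.0 ± 2.54 RPKM in Ad-LacZ and 15.5 ± 3.34 RPKM in Ad-Cre (adjusted p = 0.0836 from limma, and 0.0236 with the block), while Sytl2 and Sytl3 were under 1 RPKM in all libraries.

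Sytl4 and Sytl1 are shown by the 250 bases before their annotated starts, because these 2 effectors of the same GTPase moved in opposite directions. The sequences are from RefSeq (GRCm38.p6), 5′ to 3′ on the strand of the gene, and capitals mark CAGCTG, a form of the E-box that basic helix-loop-helix factors bind.
Sytl4, chrX:133981813-133982062, minus strand: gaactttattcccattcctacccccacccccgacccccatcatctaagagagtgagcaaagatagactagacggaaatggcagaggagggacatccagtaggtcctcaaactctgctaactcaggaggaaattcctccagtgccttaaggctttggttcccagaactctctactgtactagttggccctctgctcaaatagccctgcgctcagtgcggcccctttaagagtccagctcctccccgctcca
Sytl1, chr4:133263088-133263337, minus strand: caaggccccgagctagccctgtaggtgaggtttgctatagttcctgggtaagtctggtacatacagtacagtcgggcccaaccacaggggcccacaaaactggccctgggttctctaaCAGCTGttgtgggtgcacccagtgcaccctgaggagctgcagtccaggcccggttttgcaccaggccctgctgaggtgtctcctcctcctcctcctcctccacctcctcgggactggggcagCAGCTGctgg

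The Sytl1 window holds CAGCTG at 132 and at 10 bases before the start, and the Sytl4 window does not hold it. It reads the same on both strands and occurs in 13.0% of 32851 RefSeq windows of this length, the windows of Stx1a and of one start each of Rab3a and Rab27a among them. Also searched on both strands were the GC box GGGCGG (32.7% of windows), the AP-1 site TGANTCA (6.75%), the cAMP response element TGACGTCA (1.55%) and the ER stress response element (0.11%), and none of the 5 contains another. GGGCGG was found for Stx1a, Unc13a and one start each of Rab3a and Rab27a. The AP-1 site, which JUN proteins bind, the cAMP response element and the ER stress response element were found in none of the windows of the 5 members with an entry, Stx1a, Rab3a, Rab27a, Sytl4 and Unc13a. Snap25, Vamp2, Syt7 and Syt13 were not matched.

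The remaining lists held fewer calls. All genes gave 9.79% lower and 9.2% higher, and 17.1% and 17.6% with the block. For the virus with the inhibitor these shares were 9.67% and 12.1%, and 10.4% and 13.5% with the block. Single calls in such short lists are not a result about the list. Of 9 other SNARE proteins tested in Ad-Cre against Ad-LacZ 0 were called in limma (1 lower and 1 higher at an unadjusted p under 0.05), and with the block Snap23 (0.33) was higher and Vamp4 (-0.26) lower. Of 12 SM proteins, tomosyns and NSF-cycle genes Stxbp5, tomosyn-1, which sequesters syntaxin 1 and SNAP25, fell from 5.22 ± 0.34 to 3.08 ± 0.27 RPKM (SD, n = 4), a difference of -0.59 (adjusted p = 0.00337 from limma). With the inhibitor it was lower as well (-0.62), and Napa, alpha-SNAP, which disassembles spent SNARE complexes with NSF and was named after its value was seen, was higher (0.74, adjusted p = 0.027). Of 5 priming factors and complexins Baiap3, a relative of the Munc13 proteins, fell from 15.7 ± 4.28 to 7.62 ± 1.35 RPKM (-0.91, adjusted p = 0.0136), and with the block Cadps (-0.45), which primes dense-core granules, was lower too. With the inhibitor 0 of these 5 were called without the block and 1 was lower with it, and Baiap3 differed by -0.52 (adjusted p = 0.0963 from limma). Of 7 other synaptotagmins and calcium sensors Syt14 fell (-0.61, adjusted p = 0.0382), from 3.09 to 1.67 RPKM on average. Of 10 exocyst subunits, parts of the complex that tethers vesicles, Exoc2 (-0.45) and Exoc6b (-0.58) fell, and 4 were lower with the block. With the inhibitor 4 of 9 exocyst subunits fell, Exoc5 (-0.81), Exoc6b (-0.62), Exoc2 (-0.51) and Exoc8 (-0.39), of which Exoc5 and Exoc8 were named after their values were seen.

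**Figure D4:**
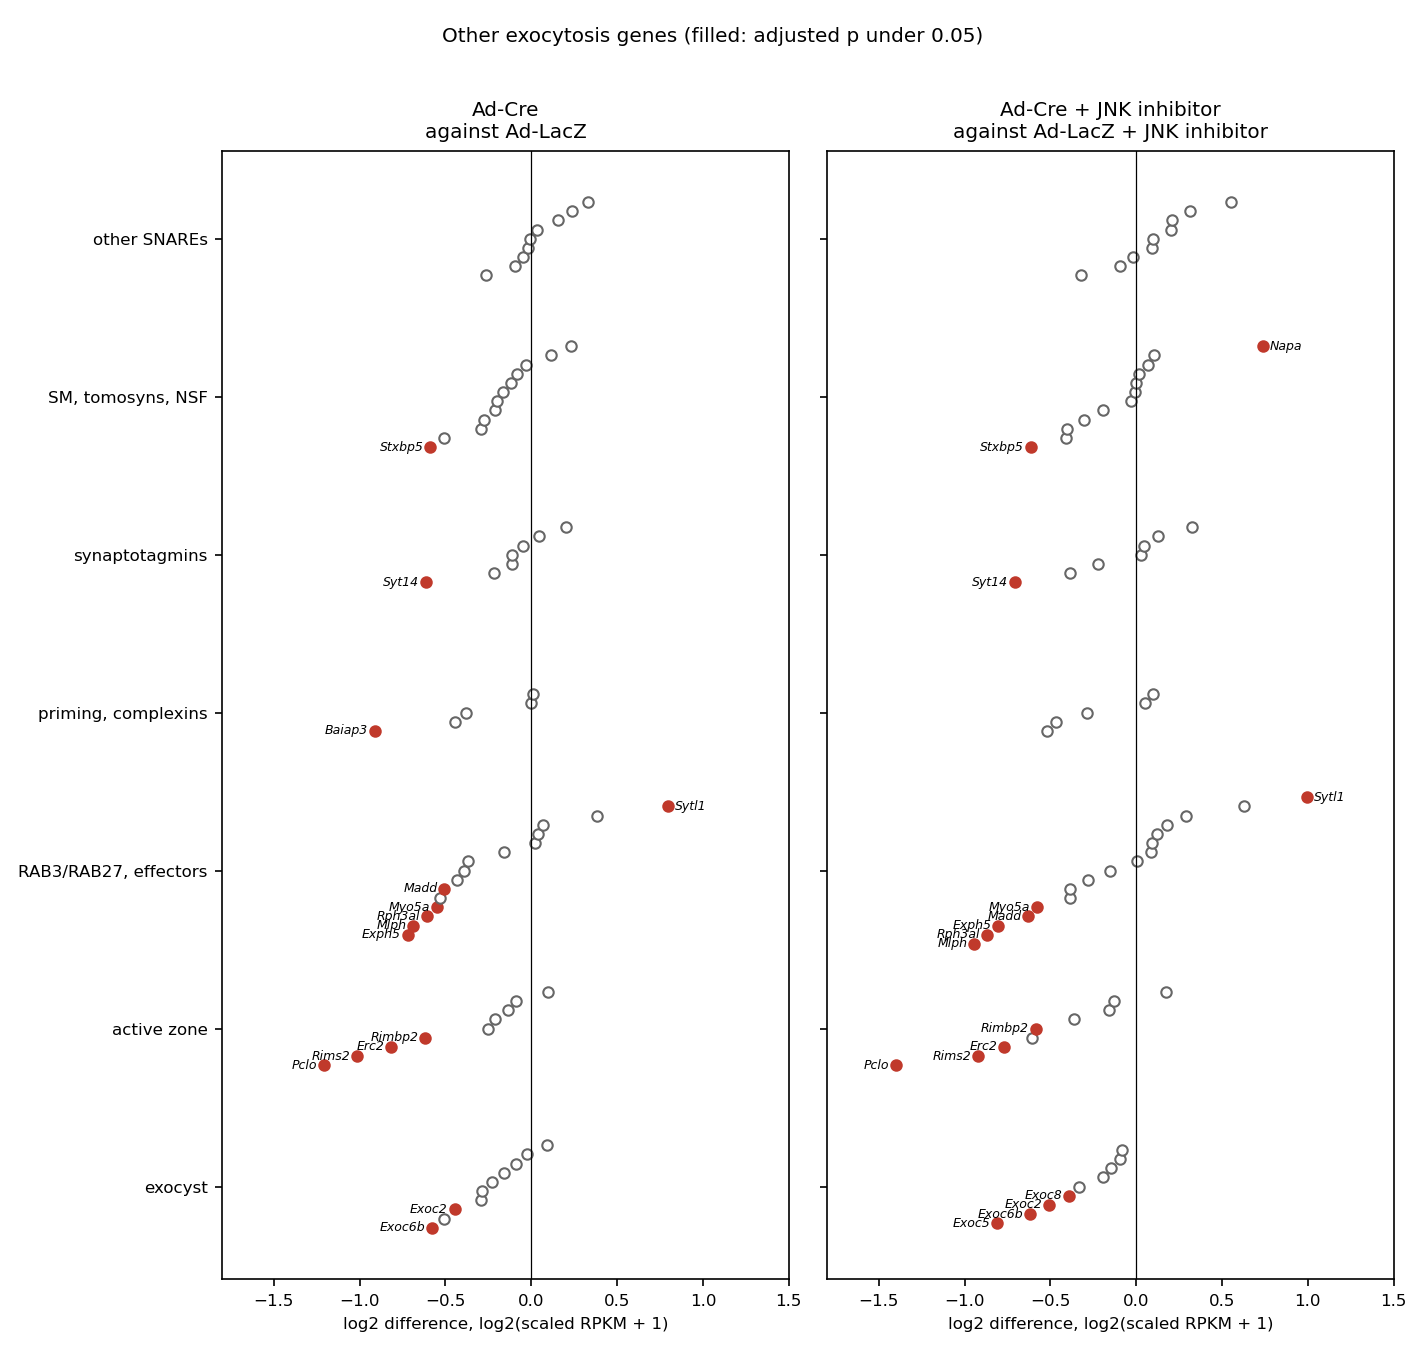
Differences of the other exocytosis genes on the log2(scaled RPKM + 1) scale (x axes), 1 circle per gene, by functional list (y axis), for Ad-Cre against Ad-LacZ (left) and for the same with JNK inhibitor (right), filled and named where the adjusted p from limma is under 0.05 (n = 4 libraries a group). Filled circles lie at negative values, from -0.39 (Exoc8) to -1.40 (Pclo), except for Sytl1 at 0.80 and 1.00 and Napa at 0.74.

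Markers of cell types moved beside these genes in Ad-Cre against Ad-LacZ. The counts below stand beside 9.79% of all genes called lower and 9.2% higher, and 17.1% and 17.6% with the block. All 9 beta cell markers had negative differences, 2 were called in limma and 6 with the block, with a median of -0.78, while their summed level, dominated by the insulin genes, was 51906 to 84724 RPKM in Ad-LacZ and 33474 to 84383 RPKM in Ad-Cre. The 2 called were G6pc2 (-1.93) and Ucn3 (-2.08). All 7 macrophage markers tested had positive differences and 2 were called (median 0.91), with sums over 8 genes of 70.1 to 78.6 RPKM in Ad-LacZ and 69.8 to 206 RPKM in Ad-Cre. All 4 stellate and fibroblast markers tested were positive with 0 called in either fit (3 at an unadjusted p under 0.05 with the block), with sums over 6 genes of 23.5 to 105 and 21.8 to 676 RPKM. Of the 6 alpha cell and 5 delta and PP cell markers none was called (medians 0.02 and 0.21), nor of 6 endothelial (0.24) and 2 duct markers (-0.18). Of 3 neuron and Schwann cell markers tested 1 was called lower, with and without the block (median -0.06). In a bulk library, fewer beta cells and less RNA per beta cell cannot be told apart, and the part of cell composition in the values of Sytl4, Syt13 and the scaffolds was not tested.

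With the inhibitor, Ad-Cre against Ad-LacZ had 4 of the 9 beta cell markers called lower (median -0.82). In this comparison 9.67% of all genes were called lower and 12.1% higher, and 10.4% and 13.5% with the block. The alpha cell markers were positive for 6 of 6 (median 0.57), with 0 called without the block and 3 higher with it. The delta and PP cell markers were positive for 5 of 5 (median 0.90), with 1 called higher, Ppy, and 5 with the block, and their sum was 3495 to 6838 RPKM in Ad-LacZ + JNK inhibitor and 7033 to 12055 RPKM in Ad-Cre + JNK inhibitor. The stellate and fibroblast markers were negative for 5 of 5 (median -1.20), with 0 called without the block and 4 lower with it, and sums of 43.6 to 507 and 25.6 to 145 RPKM. Of 2 duct markers tested 1 was called lower, Spp1 (-1.27), and of the macrophage (median -0.01) and endothelial markers (0.40) none was called in either fit. Of 3 neuron and Schwann cell markers tested 1 was called lower here too, with and without the block (median -0.34). In the comparisons of the inhibitor, Ad-LacZ cells had positive differences for 7 of 7 macrophage markers (median 0.77, 1 called, Cd68), with sums of 136 to 313 RPKM in Ad-LacZ + JNK inhibitor. In the same cells 4 of 4 stellate and fibroblast markers (median 1.84) and 2 of 2 duct markers (1.06) were positive, with 0 called without the block and 1 of each list with it. Of all genes 0.206% were called there in either direction, and 0.36% with the block. In Ad-Cre cells the inhibitor gave positive differences for 6 of 6 alpha cell (median 0.40) and 5 of 5 delta and PP cell markers (0.54), with 0 called without the block and 1 of each list with it. The shares of all genes were 0% and 6.08%, in either direction. The beta cell markers had 0 called in both comparisons of the inhibitor, with or without the block (medians -0.09 in Ad-LacZ and -0.16 in Ad-Cre). The part of these markers in the members' values, Vamp2 among them, was not tested.

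Across the 16 libraries the members fell into those that varied with each other and those that did not. Pearson's r of log2 values was 0.88 for Rab27a with Syt13 and for Syt7 with Rab3a, 0.87 for Rab27a with Sytl4 and for Rab3a with Rab27a, and 0.85 for Syt13 with Sytl4. Snap25 had an r between -0.49 (Stx1a) and 0.53 (Vamp2) with the others, and Stx1a was negative with 7 of the other 8 members, down to -0.58 with Vamp2. The 16 points share 4 groups and 4 preparations, so that these values describe the set and carry no test. Among 12274 genes that exceeded 1 RPKM in 4 or more of the 16 libraries, the profile nearest to that of Sytl4 was Tmem215 (r = 0.99), followed by G6pc2 (0.99), the islet glucose-6-phosphatase, and Sdk2 (0.98). Among the nearest to Syt13 were Cbs and Atp2a3 (0.97 to 0.98). The nearest to Rab27a were Gng12, Akr1c12 and Epb41l4b (0.97 to 0.98), to Syt7 Chrnb2, Prss53 and Arl2bp (0.96), and to Rab3a Suox, Ncald and Ripply3 (0.96 to 0.97). For Vamp2 they were Wdr41, Gas2 and Lonp2 (0.86 to 0.93), for Snap25 Sms, Adnp and Rora (0.85 to 0.86), for Stx1a Mpzl1, Gramd4 and Prmt3 (0.85 to 0.88), and for Unc13a Dhx16, Rundc1 and Thoc5 (0.93 to 0.94). The mean of the 9 standardised members was followed most closely by Ndrg3, Tmem163, Slc44a3, Ntrk2 and Ppp1r1a (0.95).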

How the data were processed

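Poly(A) RNA of 16 libraries (4 groups of 4) was sequenced in 150-base pairs. The authors deposited RPKM values for 25105 genes, and the step from counts to RPKM is not given in the sources used here. The submitters' processing notes name GRCm38, which was used for coordinates. A further 3 columns of no labelled sample were not used. Depth was read from the steps of low RPKM values, of which 93.2 to 94.8% were whole reads within 0.02. The members and gene lists were chosen with earlier results of these data known. They are named by rule: the 9 members, genes of the exocytosis lists called in Ad-Cre against Ad-LacZ (at most 5 a list), the 3 genes most correlated with each member and 5 with their mean, Hspa5, Jun and the markers. Some of these genes are not reported here. The RPKM were brought to one scale with TMM factors (30% of ratios and 5% of levels trimmed), a pseudocount of 1 was added, and genes above 1 RPKM in at least 4 libraries were fitted with limma 3.58.1 (eBayes with trend) in R 4.3.3, over the 8 libraries of a comparison. The scale understates the change of low genes. Non-overlap and the exact two-sided permutation test (70 splits) used the scaled values. Replicate numbers pair the libraries: the methods state that one replicate was split over parallel cultures, and residuals of same-numbered libraries correlated (0.484 to 0.717 for Ad-Cre against Ad-LacZ, 0.126 to 0.824 in the other 3 comparisons). The labels do not say that preparations came from separate days. The procedure was tested on simulated data. Tables were made with Python and pandas. The alternatives were the pseudocount, the filter, no scaling, one fit of all 16 libraries, quantile normalization, the block, eBayes without trend, and each preparation or the library of the other run left out.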

Additional observations from a re-analysis of the deposited data

Results flagged for a closer look

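Of 36 groups of 4 values (9 members in 4 groups), 1 held a library whose distance from its nearest neighbour took up more of the group's range than Dixon's 95% critical value, and chance alone flags about 5% of such groups. Vamp2 was at 34.1 RPKM in the Ad-Cre + JNK inhibitor library of M2, while the other 3 libraries of that group lay between 30.15 and 30.5 RPKM. The inferred depth of that library was 20.2 M reads. The test of the interaction called none of the 9 members in limma (0 at an unadjusted p under 0.05). For Sytl4 its 95% interval was -1.31 to 0.65 without the block and -0.82 to 0.15 with it.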

How the results depend on the processing

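Sytl4 kept its direction under all alternatives, and in Ad-Cre against Ad-LacZ it missed the adjusted threshold in 3 of 12 (no filter, adjusted p = 0.0522 over more genes, and the omission of M1 or F2, 0.0576 and 0.104). The number of members called in Ad-Cre against Ad-LacZ was 1, and it was 0 with no filter, 3 with quantile normalization, 3 with the replicate block (Sytl4, Syt13 and Rab3a) and 0 to 1 with a preparation left out. With the inhibitor it was 1, and it was 2 with RPKM as deposited, 3 with quantile normalization and 1 to 2 with a preparation left out. The other exocytosis genes called in Ad-Cre against Ad-LacZ were 15, with 25 under the replicate block and 4 to 10 with a preparation left out. With the inhibitor they were 17, with 11 when no filter was used, 26 with RPKM as deposited and 0 to 21 with a preparation left out. For the inhibitor in Ad-Cre the block gave 2 in place of 0, and in Ad-LacZ quantile normalization gave 1 in place of 0. Fits with the block and 1 preparation or the library of the other run left out were added after seeing the data. They gave 1 to 3 members in Ad-Cre against Ad-LacZ, 1 to 2 with the inhibitor, 0 to 4 for the inhibitor in Ad-Cre (4 without M2, with 13 of the other genes) and 0 to 1 in Ad-LacZ (1 without F1, Vamp2). Without the library of the other run the block left 0 of the 17 other genes called with the inhibitor, and 0 to 22 when a preparation was left out. The cause of these changes was not tested, and the shares of all genes called in the fits with libraries left out are not given here. The block changed no other call of a member.

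Leaving out scaling moved the median of all genes by -0.11 for the inhibitor in Ad-Cre, by -0.14 for the virus with the inhibitor and by -0.12 for the interaction. The differences that reversed their sign were of members not called in that comparison. In Ad-Cre against Ad-LacZ, Unc13a was -0.0057 with no filter and -0.10 to 0.17 with a preparation left out (-0.047 without M1), and Snap25 was -0.20 to 0.043 (0.022 without M2). For the inhibitor in Ad-Cre with RPKM as deposited, Stx1a was -0.053, Syt7 -0.11 and Rab27a -0.10, and with quantile normalization Syt7 was -0.11, Rab27a -0.12 and Syt13 -0.013. With a library or a preparation left out Syt7 was -0.0049 to 0.13 and Rab27a -0.034 to 0.088. For the inhibitor in Ad-LacZ, Rab27a was -0.011 with quantile normalization and -0.025 to 0.094 with a preparation left out, and Stx1a was -0.0037 to 0.25. For the virus with the inhibitor, Vamp2 was -0.14 as deposited, -0.17 with quantile normalization and -0.10 to 0.057 with a preparation left out. Syt7 was -0.062, -0.19 and -0.052 to 0.18 in the same order, and Snap25 was -0.037 to 0.35 with a preparation left out. In the interaction, Syt13 was -0.11 as deposited, -0.18 with quantile normalization and -0.024 to 0.11 with a library or a preparation left out, and Rab27a was -0.11, -0.10 and -0.083 to 0.15 in the same order (-0.014 without F2). Stx1a was 0.021 there with quantile normalization and -0.20 to 0.12 with a preparation left out (0.034 without F2), and Snap25 was -0.041 to 0.41. The replicate block gave the same differences where a preparation was left out, since both groups then lose their library. Stx1a had the fewest inferred reads (81.5 at the lowest), which limits its precision.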

Other observations

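The cargo of the granules was measured beside the machinery. Of 13 endocrine granule cargo and processing genes, 10 had negative differences in Ad-Cre against Ad-LacZ, and Slc30a8, the granule zinc transporter, was the 1 called lower in limma (256 to 141 RPKM on average, -0.88, adjusted p = 0.0433). With the preparation as a block Pcsk1 (-0.91) and Pcsk2 (-0.50), the prohormone convertases, were lower too and Vgf (1.02) was higher. Of all genes 9.79% were lower and 9.2% higher, and 17.1% and 17.6% with the block. With the inhibitor Vgf was higher in Ad-Cre than in Ad-LacZ (65.0 to 204 RPKM on average, 1.71, adjusted p = 0.0074 from limma) and the list's median was 0.32 beside -0.01 over all genes, while with the block Pcsk1 (-0.84) and Slc30a8 (-0.70) were lower. The inhibitor in Ad-Cre gave positive differences for 12 of the 13 genes (median 0.50 beside -0.03 over all genes), 0 of them called without the block and 6 higher with it, beside 6.08% of all genes called in either direction. The 6 were Vgf (1.46), Scg3 (0.99), Pcsk1 (0.88), Scg2 (0.87), Chga (0.71) and Ptprn (0.50), named after their values were seen, and in Ad-LacZ 9 of 13 were positive (median 0.12) with Pcsk1 (0.84) higher under the block.

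Doc2b, a calcium sensor that binds syntaxin and Munc13, did not pass the filter on low values in either comparison of Ad-Cre with Ad-LacZ. It was looked at after its values were seen. It was at 1.23, 0.86, 1.30 and 0.70 RPKM in Ad-LacZ of F1, M1, M2 and F2 and at 0.50, 0.36, 0.51 and 0.38 RPKM in Ad-Cre, with no overlap. With the inhibitor it was at 0.98 to 2.29 RPKM in Ad-LacZ and 0.53 to 0.88 RPKM in Ad-Cre.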
